A study of Mus musculus with 4 samples.

Results

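The UDP-glucuronosyltransferase (UGT) and glutathione transferase (GST) genes were taken from the arrays by name: probes for genes of the Ugt1a, Ugt2a, Ugt2b, Ugt3a, Gsta, Gstk, Gstm, Gsto, Gstp, Gstt and Gstz subfamilies and for the microsomal glutathione transferases (Mgst). They numbered 56 of 39429 probes and stood for 37 of 30139 named genes, and 34 of the 37 were bright enough to be tested, among 16079 genes tested in all. The samples were whole livers of female C57B/6 mice 8 to 10 weeks old, all homozygous for a floxed Trib1 gene, which had received AAV_Cre, an adeno-associated virus carrying the Cre recombinase, or AAV_Null, the virus without it; the submitters call the AAV_Cre mice liver-specific Trib1 knockouts and the AAV_Null mice wild type. Livers were taken 1 week after the virus and after a 4-hour fast from chow. Each of 4 arrays on 1 slide carried 1 AAV_Cre and 1 AAV_Null RNA, so that there were 4 RNAs of each kind. The AAV_Cre RNA was labelled with Cy5 on the first pair of arrays (1 and 2) and with Cy3 on the other pair (3 and 4). The labels do not say whether an RNA came from 1 mouse or a pool, which promoter drove Cre, or which piece of Trib1 was floxed. Both groups carried the floxed alleles, so the comparison is of the viruses.

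UGT enzymes of the endoplasmic reticulum attach glucuronic acid, drawn from UDP-glucuronic acid, to bilirubin, steroids, bile acids and drugs. Cytosolic and membrane-bound GSTs attach glutathione to electrophilic compounds or reduce peroxides with it. The liver is the main site of both reactions, and many of these genes answer to the transcription factor NRF2 and to the xenobiotic receptors PXR, CAR and AhR.

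Trib1 encodes a pseudokinase that brings the transcription factor C/EBPα to a ubiquitin ligase, and it served as the check of the labels. Its pair of RefSeq probes had log2 ratios (AAV_Cre over AAV_Null, here and throughout) of 0.94 ± 0.08 and 1.29 ± 0.11 (SE, n = 4 arrays), and a probe for another transcript had -0.05 ± 0.05. Trib1 signal was thus higher in the RNA labelled AAV_Cre, against the direction of a deletion, and a probe outside the floxed piece cannot check it, so each direction below is that of the RNA so labelled. Between 51.0% and 58.7% of spots in a channel were well above background and none was saturated. Across tested genes, log ratios of arrays 1 and 2 had a correlation of 0.66 and those of arrays 3 and 4 one of 0.49. The correlation was only 0.07 to 0.19 for arrays of opposite dye orientation. The fit held a dye term, which also takes up any difference between the RNA pairs on arrays 1 and 2 and those on arrays 3 and 4.

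Among the 34 genes tested, Mgst1 and Gstt3 rose in AAV_Cre livers and none fell at an adjusted p under 0.05 (limma, Benjamini-Hochberg over all genes tested). That was 2 of 34, where 2.77% of all genes tested were called, 1.78% as higher and 0.983% as lower. None of the 14 UGT genes passed, though 6 had an unadjusted p under 0.05; 8 of their ratios were above 0 and 6 below. Over all members, 13 of 34 had an unadjusted p under 0.05, against 22.6% of all genes tested. In the GST and MGST genes 10 of 20 ratios were above 0. At an adjusted p under 0.10, 5 of the 34 passed (Mgst1, Gstt3 and Ugt2b37 higher, Ugt1a10 and Gstm3 lower), against 8.00% of all genes, 4.66% as higher and 3.35% as lower. The median log2 ratio of the 34 was 0.03 and that of all genes tested was -0.0025, while the median size of the ratio, whatever its sign, was 0.148 for the members and 0.0937 for all genes.

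**Figure D1:**
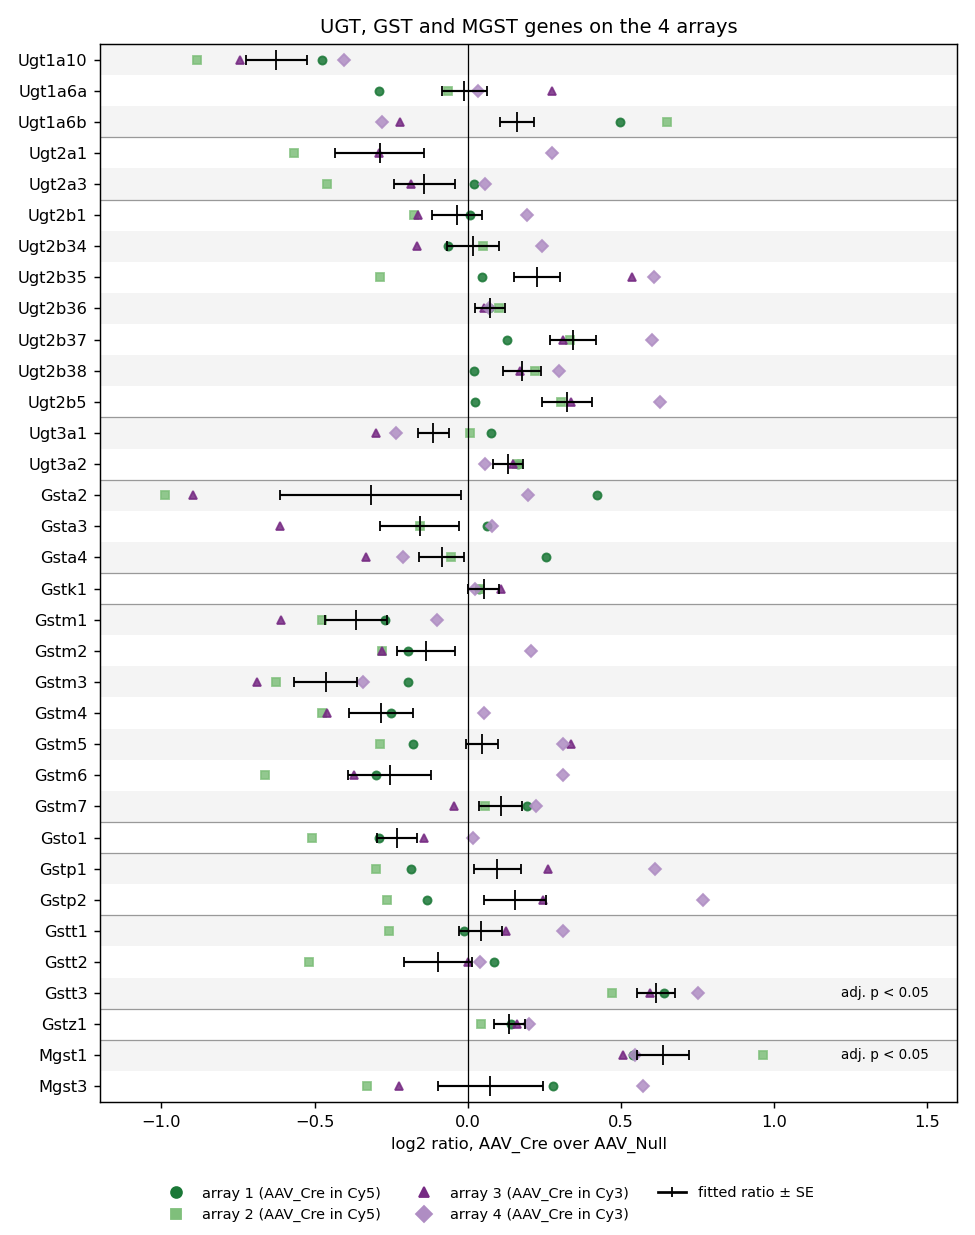
Log2 ratio of AAV_Cre over AAV_Null (x axis) for the 34 genes tested, by subfamily from top to bottom. Coloured points are the 4 arrays and black bars the fitted ratio ± SE; Mgst1 at 0.64 and Gstt3 at 0.62 passed the adjusted test, and the points of most other genes lie on both sides of 0.

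Mgst1 encodes a membrane-bound trimer of the endoplasmic reticulum and outer mitochondrial membrane that conjugates glutathione and reduces lipid hydroperoxides. Its normalised log2 intensity on arrays 1 to 4 was 17.68, 17.82, 17.88 and 18.18 in AAV_Cre livers and 17.14, 16.86, 17.38 and 17.63 in AAV_Null livers. The highest AAV_Null value (17.63) lay just under the lowest AAV_Cre value (17.68), so the groups did not overlap after normalisation between arrays. The log2 ratio was 0.54, 0.96, 0.51 and 0.55 on arrays 1 to 4, and the fit gave 0.64 ± 0.08, or 1.56-fold (adjusted p = 0.0414). Array 2 stood above the other arrays, which were close to each other. A second Mgst1 probe had 0.60, 0.88, 0.53 and 0.61 on arrays 1 to 4, with a fitted ratio of 0.65 ± 0.07 (adjusted p over probes = 0.0282; 2.38% of all probes passed 0.05). Both probes thus rose, with array 2 the highest on each. With a lower normexp offset the ratio was still 0.64 but the adjusted p was 0.0630, and without any 1 array the adjusted p was between 0.105 and 0.175. Mgst3, which reduces lipid peroxides and makes a leukotriene conjugate, had 0.28, -0.33, -0.22 and 0.57 on arrays 1 to 4 and a fitted ratio of 0.07 ± 0.17. Mgst2, the third microsomal gene, was well above background in 2 AAV_Cre and 1 AAV_Null channels and was not tested.

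One of the 2 RefSeq promoter windows of Mgst1 is shown, since Mgst1 rose and this window held matches to the antioxidant response element core bound by NRF2 (TGACNNNGC) and a core bound by C/EBP factors (TTGCNNAA). The window runs from 250 bases before to 50 after the start in RefSeq, GRCm38.p6, chr6:138140277-138140576, plus strand, with the matches in capitals, both read from the opposite strand.
Mgst1: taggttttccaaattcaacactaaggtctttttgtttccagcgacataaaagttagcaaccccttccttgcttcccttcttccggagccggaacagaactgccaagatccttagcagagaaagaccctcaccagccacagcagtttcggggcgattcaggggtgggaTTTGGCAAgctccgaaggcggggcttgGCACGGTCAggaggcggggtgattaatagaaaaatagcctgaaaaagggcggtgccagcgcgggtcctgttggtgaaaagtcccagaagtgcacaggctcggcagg
The other Mgst1 window, chr6:138141337-138141636, held no match to any motif searched. In the window shown, the C/EBP core began at position -83 and the antioxidant core at -56 from the start. RefSeq promoters were found for 33 of the 37 genes, 42 windows in all, and both strands were searched. The antioxidant core was in 4 of the 42 (9.52%; Gsta3, Gstm5, Gstm7 and Mgst1), against 12.4% of 32851 promoters of all genes. The C/EBP core was in 8 (19.0%; Gsta3, Gstm2, Gstt1, Mgst1, Ugt2a3, Ugt2b1, Ugt2b36 and Ugt2b5), against 10.8% of all. The AhR element TNGCGTG was in 1 (Gsta2, 2.38%), against 5.07%. Gsta3, which did not pass the test, also held both cores. Neither Gstt3 nor Ugt1a10 held a match to any of the 3 motifs in these windows.

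Gstt3 is a theta-class GST, a class that acts on small halogenated compounds and is coded by neighbouring genes on chromosome 10. Its log2 intensity on arrays 1 to 4 was 14.98, 15.25, 15.34 and 15.74 in AAV_Cre livers and 14.34, 14.78, 14.75 and 14.98 in AAV_Null livers. On each array the AAV_Cre channel was the brighter, although array 1 of AAV_Cre and array 4 of AAV_Null were alike, so the groups overlapped. The log2 ratio was 0.64, 0.47, 0.59 and 0.75 on arrays 1 to 4, with a fitted value of 0.62 ± 0.06, or 1.53-fold (adjusted p = 0.0253). Without any 1 array the adjusted p was between 0.0728 and 0.175. Its chromosome 10 neighbours gave other values: Gstt1 had -0.01, -0.26, 0.13 and 0.31 on arrays 1 to 4 (fitted 0.04 ± 0.07). Gstt2 had 0.09, -0.52, 0.00 and 0.04 (fitted -0.10 ± 0.11). Gstt4 was not well above background in any channel. Gstt3 rose, then, while neither tested neighbour passed; the difference between the genes was not tested.

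**Figure D2:**
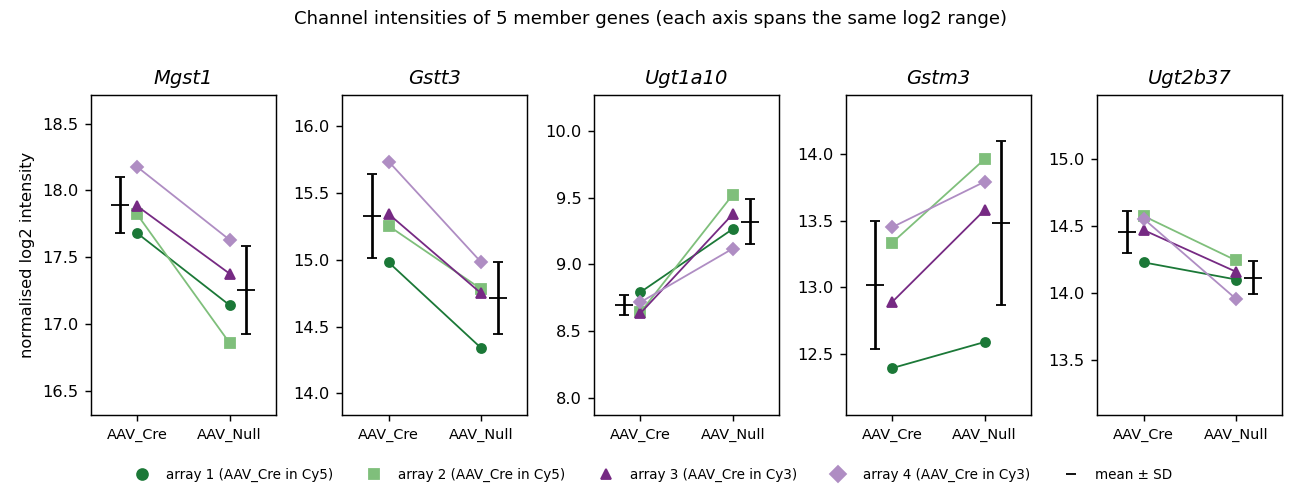
Normalised log2 intensity of 5 genes in AAV_Cre (left) and AAV_Null (right) channels, with a line for each array and the mean ± SD of 4 beside the points; every axis spans the same log2 range. The groups do not overlap for Mgst1 and Ugt1a10 and overlap for Gstt3 and Gstm3, where arrays differ in brightness but each line slopes the same way.

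The 7 mu-class genes (Gstm), which conjugate a wide range of aromatic and epoxide electrophiles, had a median log2 ratio of -0.26, with 5 ratios below 0 and none called. Gstm3 was the closest to the threshold. Its log2 intensity on arrays 1 to 4 was 12.39, 13.33, 12.89 and 13.45 in AAV_Cre livers and 12.59, 13.96, 13.58 and 13.79 in AAV_Null livers. The AAV_Cre channel was dimmer on each array, but the arrays spread more than the groups differed. Ratios were -0.20, -0.63, -0.69 and -0.34, with a fitted value of -0.46 ± 0.10 (adjusted p = 0.0969), and its second probe had -0.35 ± 0.12. Gstm1, the main mu enzyme of mouse liver, had -0.27, -0.48, -0.61 and -0.10 (fitted -0.36 ± 0.10, adjusted p = 0.138). The array annotation places this Gstm1 probe on chromosome 5, away from the mu cluster on chromosome 3, where a dimmer Gstm1 probe measured on 3 arrays had -0.22 ± 0.09. Gstm6 had -0.26 ± 0.14, Gstm2 -0.14 ± 0.09 and Gstm4 -0.28 ± 0.10, and array 4 alone had a ratio above 0 in all 3. The Gstm4 probes disagreed, since the dimmer had 0.08 ± 0.09. Gstm7 had 0.11 ± 0.07 and Gstm5 0.05 ± 0.05.

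Mu genes are close copies of each other. Coding probes of 3 mu genes that differed in ratio are shown from the array files (mm9, minus strand, chr3:107769290-107770549 for Gstm3, chr3:107745052-107745111 for Gstm6 and chr3:107732073-107733247 for Gstm7), with capitals for the 32 bases identical in all 3 once aligned.
Gstm3: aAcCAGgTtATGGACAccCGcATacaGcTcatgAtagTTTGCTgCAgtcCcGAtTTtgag
Gstm6: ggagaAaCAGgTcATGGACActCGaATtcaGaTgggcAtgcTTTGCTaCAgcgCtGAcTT
Gstm7: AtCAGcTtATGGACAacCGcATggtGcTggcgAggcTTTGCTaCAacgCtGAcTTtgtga
Gstm3 and Gstm6 shared 39 of 56 aligned bases, Gstm3 and Gstm7 40 of 59, and Gstm6 and Gstm7 41 of 55. The log2 ratios of these probes were -0.35 for Gstm3, -0.17 for Gstm6 and 0.20 for Gstm7. How far such probes cross-bind was not tested.

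Alpha-class GSTs (Gsta) handle lipid peroxidation products and, in mice, the aflatoxin epoxide. All 3 ratios were below 0 and none passed. Gsta2 spread the most of any member, with 0.42, -0.99, -0.90 and 0.20 on arrays 1 to 4 and a fitted ratio of -0.32 ± 0.30. Arrays 2 and 3 were low and arrays 1 and 4 high, so the spread did not follow the dyes. Gsta3, with 0.06, -0.16, -0.61 and 0.08, and its second probe, with -0.02, -0.10, -0.53 and -0.05, were lowest on array 3 (fitted -0.16 ± 0.13 and -0.18 ± 0.09). Gsta4, which conjugates hydroxynonenal, had -0.08 ± 0.07.

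Pi-class ratios differed in sign between the dye orientations. Gstp1, a cytosolic GST that is higher in livers of male mice than of females, had -0.18, -0.30, 0.26 and 0.61 on arrays 1 to 4, and Gstp2 had -0.13, -0.26, 0.25 and 0.77. Both genes were lower in AAV_Cre on arrays 1 and 2 and higher on arrays 3 and 4, on each of their 2 probes. The fitted ratios were 0.10 ± 0.08 and 0.15 ± 0.10. One coding probe of each is shown from the array files (mm9, minus strand, chr19:4035908-4036723 for Gstp1 and chr19:4040983-4041042 for Gstp2), to show how alike the genes are, with the 30 identical bases of a 35-base overlap in capitals.
Gstp1: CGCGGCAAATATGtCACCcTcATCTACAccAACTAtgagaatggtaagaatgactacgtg
Gstp2: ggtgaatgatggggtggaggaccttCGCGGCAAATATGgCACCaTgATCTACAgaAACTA
These probes had fitted ratios of 0.10 for Gstp1 and 0.12 for Gstp2. How far they cross-bind was not tested, and the ratio of 0.15 for Gstp2 came from another, brighter probe.

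The other cytosolic and organelle classes had 1 tested gene each. Gsto1, a thioltransferase and dehydroascorbate reductase, had -0.29, -0.51, -0.14 and 0.02 on arrays 1 to 4 (fitted -0.23 ± 0.07, adjusted p = 0.142), and Gsto2 was too dim to test. Gstz1, the maleylacetoacetate isomerase of tyrosine breakdown, had 0.14, 0.04, 0.16 and 0.20 (fitted 0.14 ± 0.05, adjusted p = 0.217). Gstk1, the GST of mitochondria and peroxisomes, had 0.04, 0.04, 0.11 and 0.02 (fitted 0.05 ± 0.05). Gstz1 and Gstk1 were above 0 on all 4 arrays but small.

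Ugt1a10 was the UGT gene nearest to the threshold. Ugt1a enzymes are made from 1 locus on chromosome 1, in which each first exon, with its own promoter, is joined to shared later exons, and they act on bilirubin and phenols. Ugt1a10 had log2 intensities of 8.79, 8.64, 8.63 and 8.72 in AAV_Cre livers and 9.27, 9.52, 9.38 and 9.12 in AAV_Null livers on arrays 1 to 4. Every AAV_Cre value lay under every AAV_Null value. Of 33 members measured on 4 arrays, Mgst1 and Ugt1a10 were the 2 without overlap, where 5.85% of all genes measured on 4 arrays had none. The ratio was -0.47, -0.88, -0.74 and -0.40, with a fitted value of -0.63 ± 0.10, 0.648-fold of AAV_Null (adjusted p = 0.0565). A second Ugt1a10 probe, at chr1:89952720-89952779 and so directly before the tested one, was not well above background in any channel. Why these adjoining probes differed was not tested. The call depended on processing: the adjusted p of Ugt1a10 was under 0.05 in 7 of 13 other settings that kept all 4 arrays. Over those 13 it ran between 0.0157 and 0.0805, with ratios between -0.87 and -0.62. Without any 1 array the adjusted p was between 0.105 and 0.262.

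Ugt1a6b was read by probes at different places in the locus. Its brighter probe had 0.50, 0.65, -0.22 and -0.28 on arrays 1 to 4, high on arrays 1 and 2 and low on arrays 3 and 4 (fitted 0.16 ± 0.06, dye effect 0.41). That probe lies 111 kb past the Ugt1a6b first-exon probe, 0.962 kb before the Ugt1a6a probe, at the end of the locus where 7 of the 9 Ugt1a genes in RefSeq end together, so it cannot tell the Ugt1a transcripts apart. The first-exon probe had 0.15, 0.15, 0.07 and 0.09 (fitted 0.12 ± 0.05), with no split between orientations. It was also dimmer, with a mean log2 intensity of 9.89 against 17.65 for the brighter probe. Why the Ugt1a6b probes differed was not tested. Ugt1a6a, whose probe lies at the same end of the locus, had -0.29, -0.06, 0.28 and 0.03 (fitted -0.01 ± 0.07). Its probe was far dimmer, with a mean log2 intensity of 8.23 against 17.65 for the brighter Ugt1a6b probe. Whether it reads Ugt1a6a alone, or the same exons, was not tested. First-exon probes of Ugt1a10 and Ugt1a6b are shown from the array files (mm9, plus strand, chr1:89952780-89952839 for Ugt1a10 and chr1:90004249-90004308 for Ugt1a6b), since their fitted ratios differed in sign, with the 32 identical bases of a 54-base overlap in capitals.
Ugt1a10: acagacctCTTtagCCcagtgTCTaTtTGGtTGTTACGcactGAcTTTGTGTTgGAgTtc
Ugt1a6b: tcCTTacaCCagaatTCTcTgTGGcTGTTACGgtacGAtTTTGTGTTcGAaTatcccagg
The ratio at these probes was -0.63 for Ugt1a10 and 0.12 for Ugt1a6b. Cross-binding with other Ugt1a genes was not tested.

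Ugt2b enzymes glucuronidate steroids, bile acids and opioids and lie with Ugt2a genes in a cluster on chromosome 5. In the 7 Ugt2b genes the median ratio was 0.18 and 6 ratios were above 0, where 49.3% of all genes tested were above 0, but none passed. Ugt2b37 had log2 intensities of 14.23, 14.58, 14.47 and 14.56 in AAV_Cre livers and 14.10, 14.24, 14.16 and 13.95 in AAV_Null livers on arrays 1 to 4. The AAV_Cre channel was brighter on each array, and array 1 had the smallest gap. Its ratios were 0.13, 0.33, 0.31 and 0.60 (fitted 0.34 ± 0.08, 1.27-fold, adjusted p = 0.0952). Ugt2b5 had much the same ratios, 0.03, 0.30, 0.34 and 0.63 (fitted 0.32 ± 0.08, adjusted p = 0.119), and the probes of these 2 genes are identical at 46 of 55 aligned bases, and how far they cross-bind was not tested. Ugt2b38 had 0.02, 0.22, 0.17 and 0.30 (fitted 0.18 ± 0.06, adjusted p = 0.193). Ugt2b35 had 0.23 ± 0.07 and 0.26 ± 0.07 on its 2 probes, of which the brighter was high on arrays 3 and 4 and the dimmer on arrays 1, 2 and 4. Ugt2b36 had 0.05 to 0.10 on the 4 arrays (fitted 0.07 ± 0.05), Ugt2b34 had 0.02 ± 0.08 and Ugt2b1 -0.03 ± 0.08.

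**Figure D3:**
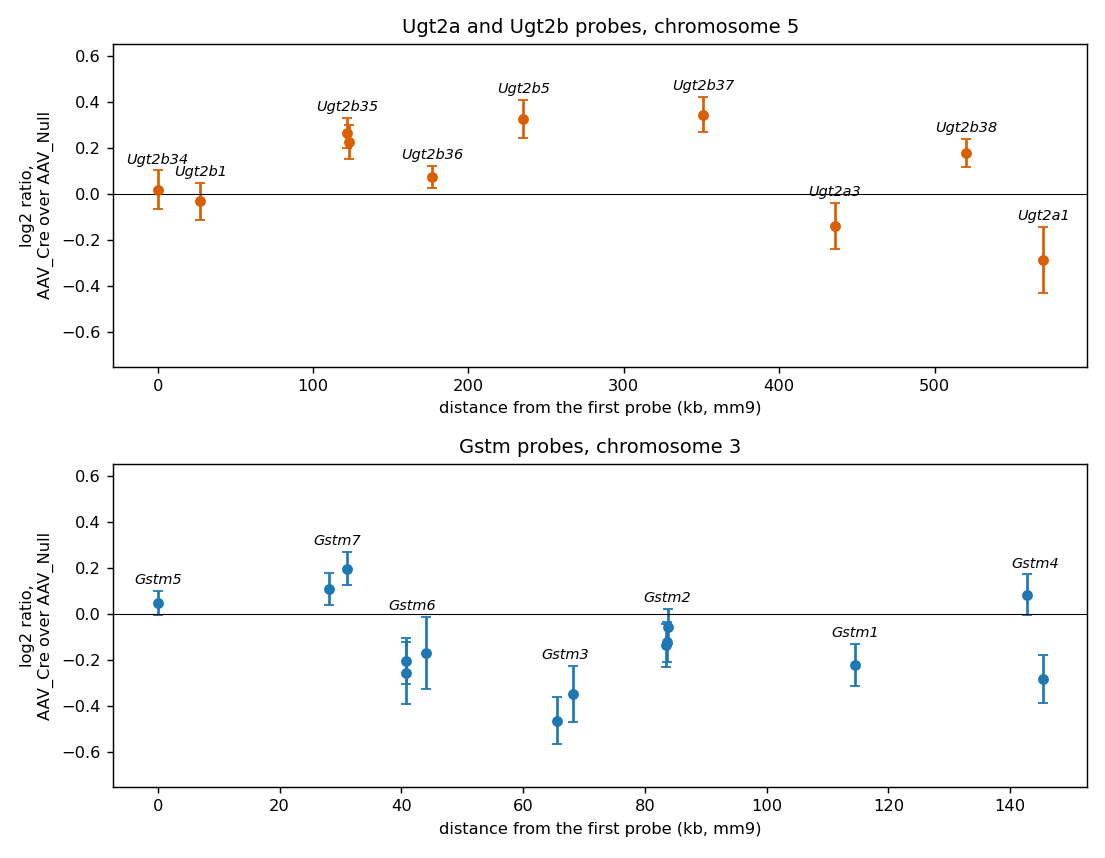
Fitted log2 ratio ± SE of each tested probe (y axis) against its distance in kb from the first probe of the Ugt2 cluster on chromosome 5 (top) and of the Gstm cluster on chromosome 3 (bottom); the brightest Gstm1 probe, placed on chromosome 5, is not drawn. Ugt2b5 and Ugt2b37 are the highest of the Ugt2 probes and the Gstm3 probes the lowest of the mu probes, and probes of 1 gene mostly lie within their SEs.

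Ugt2a1, first known as an olfactory enzyme, had -0.57, -0.29 and 0.28 on arrays 2 to 4, its spot on array 1 having been dropped as an outlier (fitted -0.29 ± 0.14, n = 3). Ugt2a3 had 0.02, -0.46, -0.18 and 0.06 (fitted -0.14 ± 0.10). Ugt3a enzymes use sugars other than glucuronic acid, as known for the human proteins. Ugt3a1 had 0.08, 0.01, -0.30 and -0.23 (fitted -0.11 ± 0.05), positive on arrays 1 and 2 and negative on arrays 3 and 4. Ugt3a2 had 0.16, 0.16, 0.15 and 0.06 (fitted 0.13 ± 0.05), and its dimmer probe 0.18, -0.04, 0.40 and 0.76 (fitted 0.32 ± 0.09). None of the 4 passed the test.

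Signs were compared over the arrays. Of the 33 genes measured on 4 arrays, 12 had the same sign on all 4, where 23.6% of all such genes did. Another 7 (Gstm5, Gstp1, Gstp2, Gstt1, Ugt1a6a, Ugt1a6b and Ugt3a1) had one sign on arrays 1 and 2 and the other on arrays 3 and 4, where 26.9% of all such genes did, so a split by orientation was no more frequent than over all genes. Gstp2 averaged -0.20 on arrays 1 and 2 and 0.51 on arrays 3 and 4, and Ugt1a6b averaged 0.58 and -0.25 on these arrays. No member probe passed the test of the dye term at an adjusted p of 0.05, which 1.62% of all probes did. Dyes and RNA pairs cannot be told apart here.

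**Figure D4:**
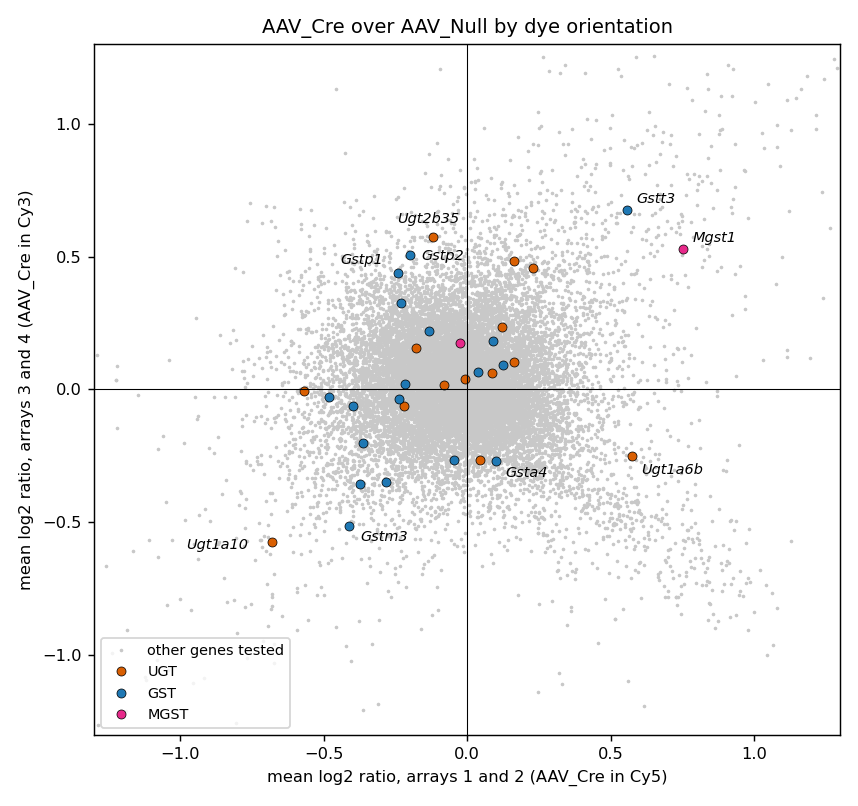
Mean log2 ratio of AAV_Cre over AAV_Null on arrays 1 and 2 (x axis) and on arrays 3 and 4 (y axis) for each gene tested, with UGT, GST and MGST genes coloured; 76 other genes lie outside the axes. Mgst1 and Gstt3 sit in the upper right and Ugt1a10 and Gstm3 in the lower left, while Gstp1, Gstp2 and Ugt1a6b lie in the quadrants where the orientations oppose.

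Genes that feed or govern the pathways were read from lists. In the NRF2 list, 2 of 19 rose and 1 fell. Nfe2l2, the gene of NRF2 itself, rose by 0.70 ± 0.09 on the log2 scale (1.63-fold, adjusted p = 0.0417), and Cbr1, a carbonyl reductase, by 0.50 ± 0.06 (adjusted p = 0.0321). Osgin1, an oxidative stress response gene, fell by 0.80 ± 0.09 (adjusted p = 0.0318). The list's median was -0.03. In glutathione synthesis, reduction and turnover, 0 of 19 rose and 2 fell: Ggact, which acts on gamma-glutamylamines, by 0.45 ± 0.06 (adjusted p = 0.0404) and Chac2, which degrades glutathione, by 0.53 ± 0.08 (adjusted p = 0.0476). The subunits of the rate-limiting enzyme of glutathione synthesis did not pass: the catalytic Gclc had 0.06 ± 0.05 (adjusted p = 0.581) and the modifier Gclm -0.21 ± 0.05 (adjusted p = 0.109).

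None of the 13 genes for supply of UDP-glucuronic acid and turnover of glucuronides passed. Ugdh, the dehydrogenase that makes UDP-glucuronic acid, had 0.37 ± 0.07 (adjusted p = 0.0767), Slc35d1, a carrier of UDP-sugars into the endoplasmic reticulum, had 0.33 ± 0.06 (adjusted p = 0.0657), and Gulo, the last enzyme of vitamin C synthesis from glucuronate, had -0.39 ± 0.06 (adjusted p = 0.0580). Of 16 xenobiotic receptor and target genes, 1 rose: Nr1i2, the gene of PXR, by 0.49 ± 0.07 (adjusted p = 0.0497). Among the 14 other conjugating enzymes reported here none passed, with Nnmt, the nicotinamide methyltransferase, at 0.46 ± 0.10 (adjusted p = 0.0899). None of 7 exporters of conjugates passed, with Abcc4 at 0.40 ± 0.06 (adjusted p = 0.0506). None of 10 other genes of the GST fold or of the Mgst superfamily passed, with Clic5 at -0.22 ± 0.05 (adjusted p = 0.114). The Clic5 ratios were 0.07, 0.03, -0.41 and -0.54 on arrays 1 to 4, so they differed in sign between the dye orientations. Over the lists, the called share in either direction was 3 of 19, 2 of 19, 0 of 13, 1 of 16, 0 of 14, 0 of 7 and 0 of 10, beside 2.77% of all genes tested.

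**Figure D5:**
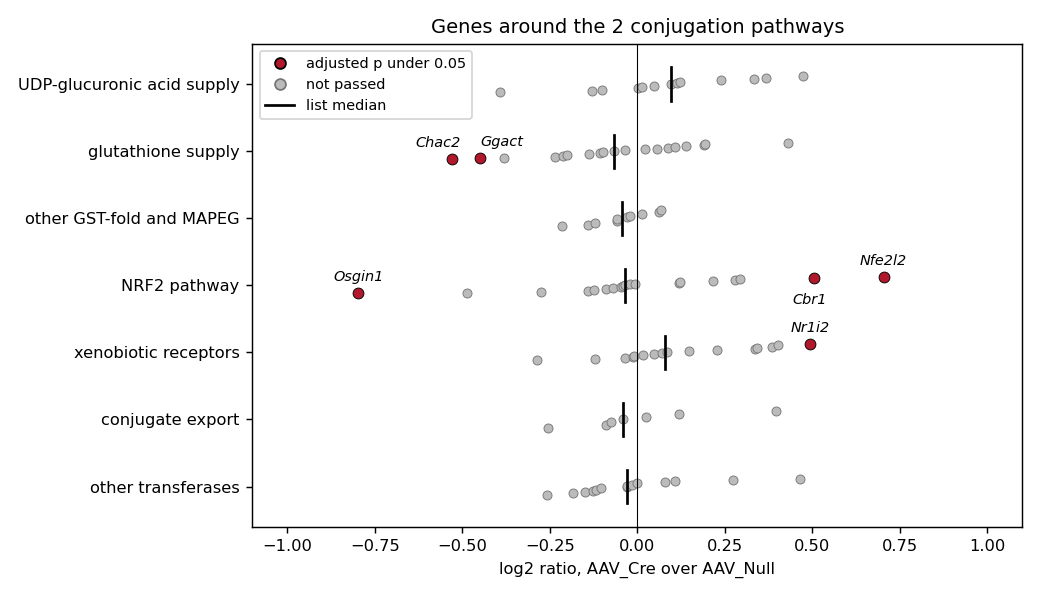
Log2 ratio of AAV_Cre over AAV_Null (x axis) for each tested gene of the 7 lists, with genes of adjusted p under 0.05 in red and named, and the list median as a black bar. Each list spreads around 0, and the 6 called genes run from Osgin1 at -0.80 to Nfe2l2 at 0.70.

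Whole liver holds several cell types, and fewer cells of a type and less RNA per cell cannot be told apart. Cebpa, the gene of C/EBPα, fell by 0.59 ± 0.06 (adjusted p = 0.0298). Hepatocyte markers had list medians of 0.24, 0.17, -0.28 and -0.63 on arrays 1 to 4. Among 10, Trf was called lower, where 0.983% of all genes tested were. Its ratios were 0.27, 0.33, -1.18 and -1.51 on arrays 1 to 4, so it was not lower in both dye orientations. Of the 10, 6 were positive with AAV_Cre in Cy5 and negative with it in Cy3. Ugt1a6b and Ugt3a1 split in that direction too, and Gstm5, Gstp1, Gstp2, Gstt1 and Ugt1a6a in the opposite one. Tat ran as Gstp1 and Gstp2 did, and Apoa1, Fga and Cps1 did not split. Among markers measured on 4 arrays, 3 of 8 endothelial markers split as those 6 did, and no Kupffer cell, stellate or cholangiocyte marker split. In the stellate list 1 of 6 rose (Col3a1, 0.47 ± 0.06), where 1.78% of all genes tested were called higher, and the median was 0.34. None of 8 endothelial markers (median -0.17), 8 Kupffer cell markers (median -0.21) and 4 cholangiocyte markers (median 0.15) passed. Their part in the results for UGT and GST genes was not tested.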

How the data were processed

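RNA was read on 4 Agilent 2-colour arrays of 1 slide. The authors' deposited scanner files give spot and background intensity for both dyes and a log10 ratio of Cy5 over Cy3, which come, per the file headers, from version 11.5.1.1 of Agilent Feature Extraction. The authors also deposited a table of log2 values, for which the submitters' processing notes name limma with no version and no steps. These log2 values had slopes of 3.34, 3.33, -3.29 and -3.39 against the log10 ratio of arrays 1 to 4, where log2 of 10 is 3.32, so they are log2 ratios of AAV_Cre over AAV_Null; the centring is not stated. The labels' protocols give 2 labelling procedures, and which was used is not settled here.

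From the intensities, background was corrected with normexp (offset 50) and each array normalised by loess with limma 3.58.1 in R 4.3.3, control spots at weight 0 and outlier spots left out. Spots of a probe were averaged. The channel intensities given here, and the overlap of groups read from them, were also normalised between arrays by limma's Aquantile method. The ratios tested did not use that step. A probe was tested if 3 or more of the 4 channels of either treatment were well above background and 3 or more arrays measured it. The fit had a treatment and a dye term, a gene was read by its brightest probe, and p-values were adjusted over 16079 genes. The residual degrees of freedom were at most 2, plus a prior of 2.667, and the number of arrays limits the precision. With 4 arrays no sign permutation of 1 gene can go below p = 0.125. The limma fit was run on simulated data with independent normal errors drawn from its own variance prior and with its own dye effects. Such data cannot show how the fit behaves where these assumptions fail. Gene names were updated by accession through RefSeq (27508 of 39429 probes).

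Members, lists and the rule for naming were chosen with earlier results of these data known. All members are accounted for; in lists the called genes, or the gene of smallest p where none was called, are named, and Gclc, Gclm, Ugdh and Slc35d1 were chosen after their values were seen. One gene of the list of other conjugating enzymes is not reported here. Alternatives were other offsets, background corrections, normalisations, filters, variance models, the dye term, the deposited table and leaving out each array. It was not recorded whether RNAs came from separate mice, so p-values measure a spread between these RNAs only. With the dye term, SEs and p-values rest on the spread between arrays 1 and 2 and that between arrays 3 and 4. They leave out the difference between these pairs of arrays. For Ugt1a6b, which differed in sign between the pairs, the adjusted p was 0.187 with the dye term and 0.778 without it.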

Additional observations from a re-analysis of the deposited data

Results flagged for a closer look

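In 3 of 38 values tested, 1 array stood apart from the other 3 by more than Dixon's critical value, where chance gives about 1 in 20, or 1.9. The log2 ratio of Mgst1 was 0.964 on array 2, with the other arrays between 0.507 and 0.547. Gstt2 had -0.517 on array 2, with the others between 0.00196 and 0.0872. Ugt3a2 had 0.0574 on array 4, with the others between 0.147 and 0.164.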

How the results depend on the processing

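The ratios of Mgst1 and Gstt3 kept their sign in all 17 other settings, Gstt3 keeping its call in the 13 that used 4 arrays. Leaving out any 1 array gave 0 GST or MGST genes higher and 0 pathway genes higher or lower, with 1 residual degree of freedom left; over all genes 13, 0, 37 and 0 were then called without arrays 1, 2, 3 and 4, against 445 with all arrays. The lower offset left 1 GST or MGST gene higher, 0 pathway genes higher and 0 lower. Without background correction the counts were 1 UGT gene higher, 1 UGT and 1 GST gene lower, and 11 pathway genes higher and 8 lower. With an intensity trend they were 2, 1, 1, 13 and 9, and at an adjusted p of 0.10 they were 1, 1, 1, 11 and 7, in the same order. The deposited log2 values gave 1 UGT gene higher and 1 lower, 11 pathway genes higher and 6 lower. Calls over all genes moved too, 287 higher and 158 lower as reported becoming 141 and 61 with the lower offset, 824 and 579 without background correction, 733 and 566 with the trend and 824 and 554 with the deposited values. Median centring gave 2 UGT genes higher and 1 lower and 8 pathway genes higher, and moved the median of all genes to 0.02. Processed signals, and the strict filter, each gave 1 UGT gene lower and 5 pathway genes higher, the filter also 5 pathway genes lower. No filter gave 1 pathway gene lower, and no dye term 1 UGT gene lower. Over all genes, calls higher and lower were 528 and 228 with median centring and 461 and 269 with processed signals. They were 368 and 220 of 14803 with the strict filter, 200 and 97 of 29983 with no filter, and 183 and 87 with no dye term. Of the 34 genes, 8 changed sign in a setting, with these values. Ugt1a6a had 0.0284 without background correction and with processed signals, and 0.0293 with the deposited values. When 1 array was left out, Ugt1a6a ranged between -0.0716 and 0.0499, Gsta2 between -0.67 and 0.0359, Gsta3 between -0.33 and 0.0173, Gstt1 between -0.0187 and 0.104, Gstt2 between -0.248 and 0.0546, Mgst3 between -0.125 and 0.274, Ugt2b1 between -0.122 and 0.0558 and Ugt2b34 between -0.0856 and 0.119. The cause was not tested. The ratio within an array already pairs its AAV_Cre and AAV_Null RNA. No paired analysis was possible because, beyond that, the array numbers pair no other groups.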
